A study of Mus musculus with 4 samples.

Results

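The genes described here are 4 ligands of the epidermal growth factor (EGF) family, Hbegf (ENSMUSG00000024486), Areg (ENSMUSG00000029378), Ereg (ENSMUSG00000029377) and Nrg1 (ENSMUSG00000062991), out of 19059 genes counted in single-cell libraries of CD45+ cells from MC38 tumors. They were chosen by name with their UMI levels in earlier results of the same libraries known, so their levels are given as a description without a test. The levels were read in neutrophils, monocytes, macrophages, T cells, type 2 lymphocytes and a cluster led by collagen genes, in each of 4 libraries. All 4 genes were detected, with 3141 unique molecular identifiers (UMIs, counted RNA molecules) of Hbegf, 3288 of Areg, 209 of Ereg and 5373 of Nrg1 in the 26785 cells kept. In outline, Hbegf was at its highest in the neutrophils of the combination library, Nrg1 in monocytes as the integrated clusters drew them, Ereg in cells of the collagen cluster that carried Rhox5, and Areg in a few cells with keratins. Outside those cells most Areg UMIs lay in macrophages, at a low level, and the level was higher in T cells with Foxp3 and in type 2 lymphocytes.

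The study asked how blocking FcgRII, an inhibitory antibody receptor of mouse myeloid and B cells, alters the immune cells of tumors treated with an antibody to CTLA-4, an inhibitory receptor of T cells. MC38 is a mouse colon adenocarcinoma line, grown here in C57BL/6 mice that carry the human CTLA-4 gene. Per the labels, treatment began at a tumor size of 100 mm3 and was given 3 times, tumors were taken on day 8, 11 mice were pooled into each library, and viable CD45+ leukocytes were sorted, fixed and profiled with gene-specific probes (Chromium Flex). The article's methods give other numbers for some of these conditions, and the labels were followed here. The isotype control library came from mice given 10 mg/kg of a control antibody. The combination library came from mice given 10 mg/kg of the anti-human CTLA-4 antibody ipilimumab and 20 mg/kg of anti-mouse FcgRII. Of the other 2 libraries, each from mice given 1 of these antibodies, the sample title and the treatment field name different antibodies. They are called single antibody A (the title names anti-human CTLA-4) and single antibody B (the title names anti-mouse FcgRII), and no direction is read from which antibody each received. With 1 library per group, a difference between libraries has no replicate check, and every interval printed below is a 95% interval that covers counting error only.

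EGF-family ligands are made as membrane proteins, and a protease, most often ADAM17, cuts them to release a soluble factor. HB-EGF, amphiregulin (Areg) and epiregulin (Ereg) bind the receptor EGFR, HB-EGF and epiregulin also bind ERBB4, and neuregulin 1 (Nrg1) binds ERBB3 and ERBB4, with ERBB2 as the common partner. Myeloid cells are known to make HB-EGF at wounds and in tumors, and amphiregulin is known as a tissue-repair product of regulatory T cells, group 2 innate lymphoid cells and many epithelia. Neuregulin 1 is best known for its part in the nervous system and the heart.

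What makes these proteins a family is the EGF-like domain, a stretch in which 6 cysteines stand at fixed distances. The coding sequences of that domain are shown for 3 members, from the first to the last cysteine, to set the spacing in Areg and Ereg beside that in Nrg1. Hbegf was not searched, so no closeness of Areg and Ereg among all members is read from them. Capitals mark the cysteine codons, and positions and sequence are of build GRCm38 with the GENCODE M21 transcripts.
Areg-201, chr5:91143614-91144364, plus strand, exons 3 and 4: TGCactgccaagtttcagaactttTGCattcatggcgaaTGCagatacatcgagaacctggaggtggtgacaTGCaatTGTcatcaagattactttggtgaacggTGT
Ereg-201, chr5:91088496-91089111, plus strand, exons 3 and 4: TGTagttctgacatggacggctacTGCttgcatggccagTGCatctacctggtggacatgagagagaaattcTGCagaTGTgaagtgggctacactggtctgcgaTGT
Nrg1-203, chr8:31837698-31849398, minus strand, exons 6 and 7: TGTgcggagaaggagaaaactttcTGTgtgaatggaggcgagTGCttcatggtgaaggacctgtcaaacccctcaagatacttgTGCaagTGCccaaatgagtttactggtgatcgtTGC
Areg and Ereg both have 36 codons here, with 7, 4, 10, 1 and 8 codons between successive cysteines. Nrg1 has 40 codons, with 7, 5, 13, 1 and 8 between them. In each of the 3 genes the domain is split over 2 exons.

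Areg and Ereg are also neighbors on chromosome 5, on the same strand: Ereg spans positions 91074622 to 91093646 and Areg spans 91139599 to 91148432, which leaves 45952 bases between them. Epgn, another ligand of the family, ends 39406 bases before Ereg, and Btc starts 208828 bases after Areg. Of the 4 members, Areg alone had a promoter in the RefSeq table used (GRCm38.p6). Its 91 bases before the start site are shown because they hold a cAMP response element and a TATA motif, in capitals.
Areg promoter, chr5:91139508-91139598, plus strand: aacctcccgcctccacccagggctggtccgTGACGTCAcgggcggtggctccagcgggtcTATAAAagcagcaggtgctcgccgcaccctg
TGACGTCA began 61 bases and TATAAA 31 bases before the start site. Of 32851 promoter windows of 300 bases (250 before to 50 after each start), 1.79% held TGACGTCA on either strand, 13.6% held TATAAA and 0.17% held both. These matches describe letters and were not tied to any level given here.

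The libraries held 6097 to 8173 cells and 129151823 to 196362818 UMIs, and the median cell had 14836 to 19115. Cells were grouped into clusters after integration of the libraries, and each cluster was named from marker lists. The class markers were higher than in all other cells for 11 of 11 in neutrophils (721 cells), 10 of 10 in monocytes (2700), 14 of 14 in macrophages (14531) and 9 of 9 in T cells (1586). Type 2 lymphocytes were cells of the T and NK clusters with at least 1 UMI of Il1rl1 (the IL-33 receptor) and of Gata3 and none of Foxp3. There were 14, 41, 6 and 46 of them in the isotype control, A, B and combination libraries, 107 in all. Of these, 96 had Cd3e, 64 had Cd4 and 32 had Cd8a, so that most had a T cell gene. Il5 was found in 16, Il13 in 10, Il17rb in 9 and Ptgdr2 in none. The rule reads Foxp3 by UMIs, so a cell whose Foxp3 went uncounted could enter the class. A further 2474 cells, in clusters with T cell and macrophage markers together, were left out of both classes.

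The cluster of 344 cells led by Col3a1, Col6a1 and Col6a2 scored highest for fibroblast and stromal markers, 9 of 10 of which were higher than elsewhere, yet it held cells of different kinds. In 286 of them there were at least 5 UMIs of Rhox5, a homeobox gene of reproductive tissue that many tumor lines are known to switch on. These cells, called Rhox5 cells here, had a Rhox5 level of 567 UMIs per 1000000 UMIs (CPM) against 27.1 in all cells. They were rich in Col3a1 (5384 CPM), Dcn (1019) and Sox9 (494), and of the same 10 markers 7 were higher in them than in all other cells, among them Pdgfra (219 CPM) and Lum (73.1). The 3 that were not were Col1a2 (1.45 CPM, against 1.86 in all other cells), which encodes a chain of type I collagen, and the endothelial genes Pecam1 and Cdh5. Ptprc, which encodes CD45, stood at 18.5 CPM in them against 644 in all cells, although the sort was for CD45. The 28 cells that remained had Col1a2 at 2016 CPM and Pecam1 at 491. The last 30 cells of the cluster had at least 2 UMIs of at least 2 of the epithelial genes Krt8, Krt18, Krt19 and Epcam, with Krt19 at 10660 CPM and Col3a1 at 0. Both cuts were set after these values were seen. The cluster is called the Col3a1 cluster below, and no cell type is given for it.

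The UMIs of the 4 ligands lay in different cells. Of the Hbegf UMIs, 18.8% were in Rhox5 cells and 1793 of 3141 in monocytes and macrophages, of which there were 19152. For Ereg, 192 of 209 UMIs, or 91.9%, were in the 286 Rhox5 cells. Of the Areg UMIs, 2529 of 3288, or 76.9%, were in 40 cells with epithelial markers, 30 of them in the Col3a1 cluster, and 10 cells held 50% of all Areg UMIs. Nrg1 was the most widely spread, with 3824 of 5373 UMIs in monocytes and macrophages, 13.3% in Rhox5 cells and at least 1 UMI in 2459 cells.

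**Figure D1:**
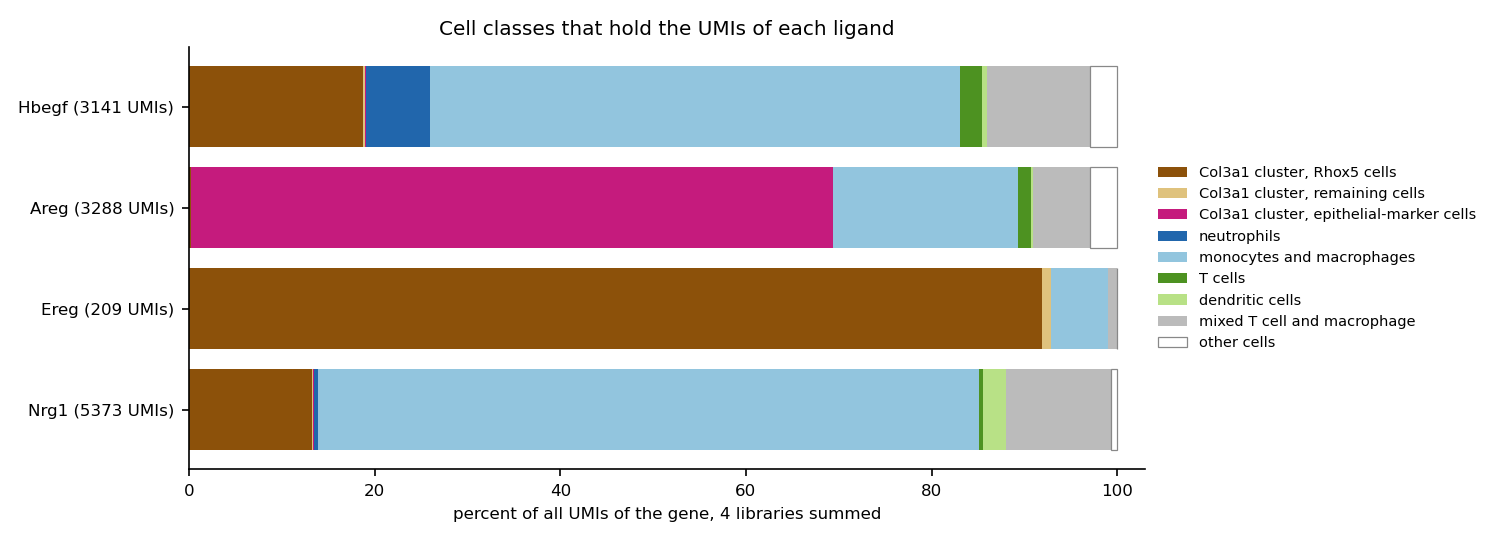
Percent of all UMIs of each ligand by cell class, with the 4 libraries summed. Each bar is 1 gene and adds to 100%. Ereg is almost all in Rhox5 cells (91.9%), most Areg is in the 30 epithelial-marker cells of the Col3a1 cluster, and Hbegf and Nrg1 are mainly in monocytes and macrophages.

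Levels below are UMIs of the gene per 1000000 UMIs of the class (counts per 1000000, CPM), summed over the cells of a class. Because the number of probes differs by gene, a level is compared between classes and libraries and never between genes.

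**Figure D2:**
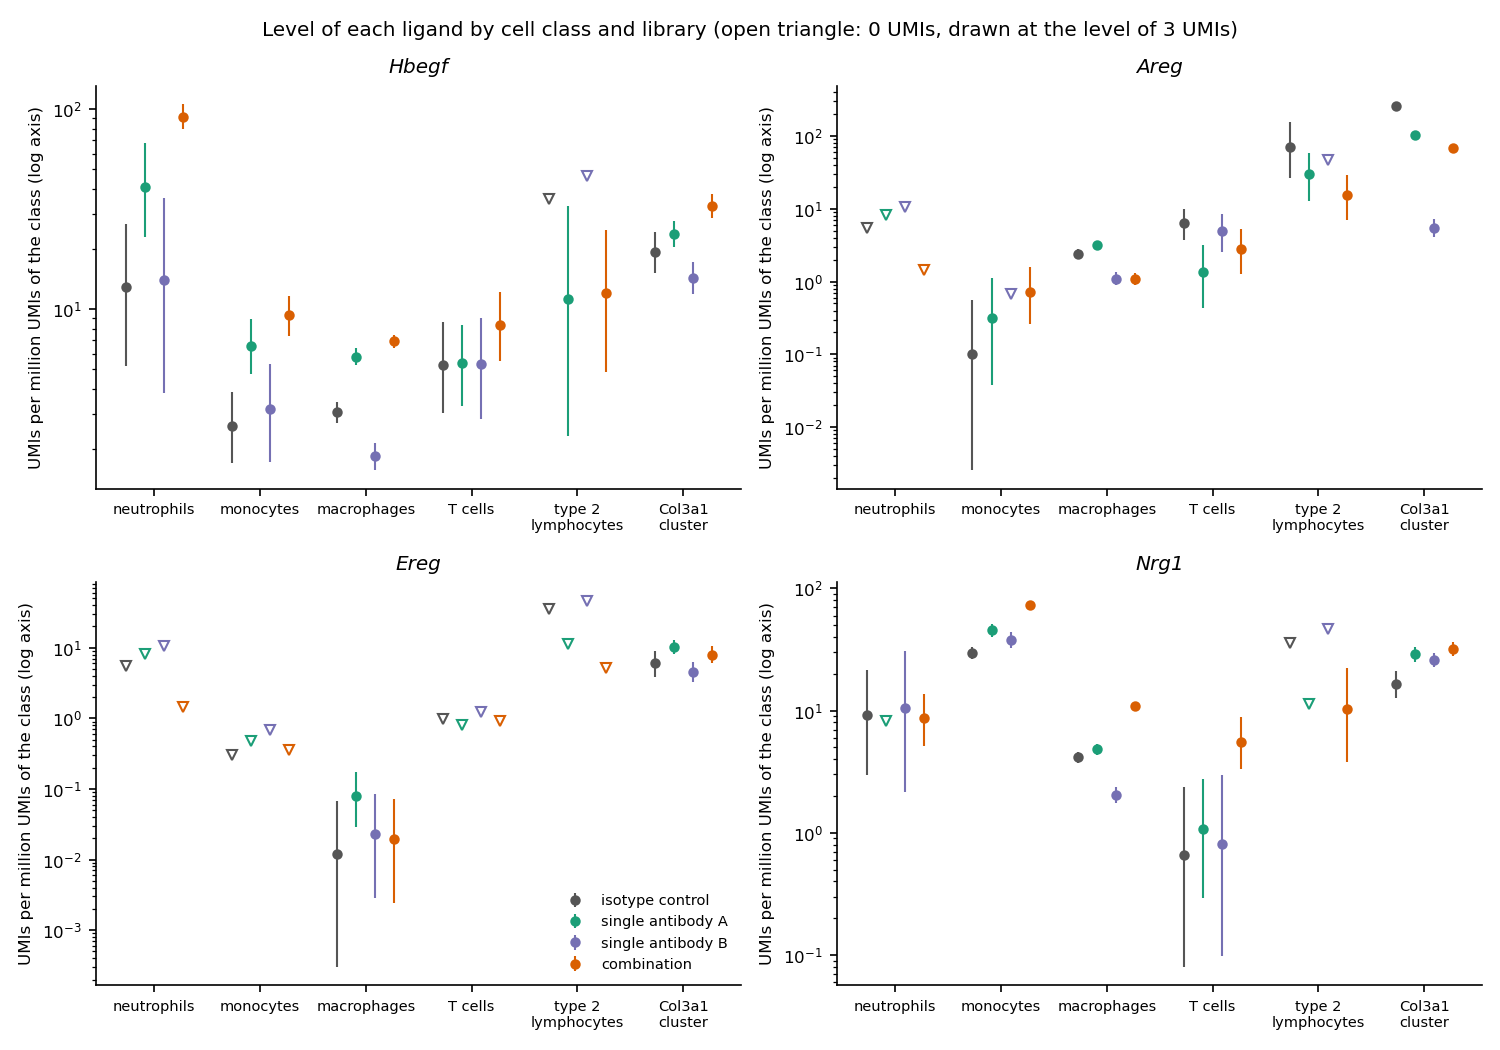
Level of each ligand (CPM, log axis) in 6 classes, with 1 point per library and its 95% counting interval. Open triangles mark 0 UMIs and stand at the level that 3 UMIs would give. Hbegf in neutrophils of the combination library (91.7 CPM) and Nrg1 in monocytes of the same library (73.1) are the highest points of those genes.

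Hbegf, which encodes HB-EGF, was counted in neutrophils with 7, 15, 4 and 190 UMIs in the isotype control, A, B and combination libraries. These are levels of 12.9 (5.18 to 26.5), 41.0 (23.0 to 67.7), 14.0 (3.82 to 35.9) and 91.7 (79.1 to 105.7) CPM. The combination library was the highest and its interval met none of the others, while those of the isotype control and B overlapped almost fully. The level in the combination was 7.12 times that in the isotype control (3.39 to 17.95), 2.23 times that in A (1.32 to 4.07) and 6.54 times that in B (2.51 to 24.2). Among 7896 genes past a minimum of 10 CPM in the higher library and 20 UMIs over both, 4.45% were at least 2-fold higher in neutrophils of the combination than of the isotype control, and 9.66% were at least 2-fold lower. Against A, 10.6% of 7584 genes were at least 2-fold higher and 2.37% at least 2-fold lower. Against B, these shares were 8.6% and 10.1% of 7708 genes.

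The combination was also the highest when neutrophils were counted by cell. Hbegf was found in 6 of 114, 6 of 92, 1 of 50 and 68 of 465 neutrophils, which is 5.26%, 6.52%, 2.0% and 14.6%. By this count A was near the isotype control, unlike by level. With cells under 2000 UMIs left out and the others reduced to 2000 UMIs, the shares were 1.89%, 5.35%, 0.431% and 11.1%. Every share at 2000 UMIs below was taken in this way. B cells, which are not known for HB-EGF, had none in 52 cells at a similar median depth (3072 UMIs against 3173 in neutrophils), which allows a share of up to 5.77%. The neutrophil class itself differed between the libraries: it held 465 cells in the combination and 50 to 114 in the others, and summed macrophage markers were lowest in it in the combination (7665 CPM, against 8905 to 20600). Their part in the Hbegf difference was not tested.

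In monocytes, the blood-derived precursors of tumor macrophages, Hbegf stood at 2.62, 6.58, 3.17 and 9.34 CPM in the isotype control, A, B and combination libraries. In macrophages it stood at 3.06, 5.80, 1.85 and 6.91 CPM, from 255, 437, 159 and 700 UMIs. In both classes the combination and A lay above the isotype control and B. With clusters made without integration, Hbegf in monocytes gave no ratio of combination to isotype control. B had 1.21 times the isotype control in monocytes (0.583 to 2.40), an interval that includes 1, and 0.603 times in macrophages (0.492 to 0.738). For monocytes and macrophages together the combination was 2.38 times the isotype control (2.08 to 2.73), 3.81 times B (3.23 to 4.50) but 1.23 times A (1.10 to 1.38). At a level of 6.94 CPM in the higher library, Hbegf was under the minimum for the count of all genes here, in which 1.81% of 8725 genes were at least 2-fold higher in the combination and 0.676% at least 2-fold lower.

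Hbegf was unevenly spread over the macrophage clusters. The highest level, 15.1 CPM over all libraries, was in a cluster led by Ctsk, Hspa1a and Hspb1 with further stress and hypoxia genes such as Gdf15, Adm and Hilpda. Next was a cluster led by Mmp12, Nos2 and Cxcl3, at 11.4 CPM, then one led by Thbs1, Spp1 and Fn1, at 8.91. The clusters led by Cbr2 and Folr2, genes of resident-like macrophages, and by Gbp2b and H2-Eb1, genes of interferon response and antigen presentation, had 2.24 and 1.14 CPM. The Mmp12 and Nos2 cluster had 7, 61, 13 and 163 UMIs and levels of 1.98, 14.7, 3.31 and 16.6 CPM, a ratio of combination to isotype control of 8.38 (3.98 to 21.2). In the Ctsk cluster the levels were 11.4, 21.2, 6.53 and 22.7 CPM, a ratio of 1.99 (1.60 to 2.48). Of the 16 clusters in the plot of levels by cluster, the small one led by Hspa1a and Adm and the mitotic one led by Cdc20 had less Hbegf in the combination than in the isotype control, with ratios of 0.625 (0.155 to 1.87) and 0.573 (0.148 to 1.99).

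In lymphocytes the combination had the highest Hbegf level, with wide intervals. T cells had 5.29, 5.37, 5.30 and 8.34 CPM, with a ratio of combination to isotype control of 1.58 (0.819 to 3.13), and of 0.945 (0.412 to 2.18) with clusters made without integration. NK cells and ILC1 had 7.57, 5.63, 4.65 and 10.2 CPM, a ratio of 1.34 (0.744 to 2.50). Among type 2 lymphocytes, 3 UMIs were found in A and 7 in the combination, and none in the other libraries, where few cells of the class were counted. Dendritic cells were the lowest of the larger classes, at 2.07 CPM (1.16 to 3.41) over all libraries.

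In the Rhox5 cells Hbegf stood at 21.3 (16.6 to 26.8), 24.9 (21.4 to 28.9), 14.5 (12.0 to 17.3) and 32.9 (28.7 to 37.6) CPM in the isotype control, A, B and combination libraries. It was seen in 14 of 46, 35 of 77, 37 of 97 and 43 of 66 of these cells, which had a median of 86196 UMIs. For the whole Col3a1 cluster the ratio of combination to isotype control was 1.69 (1.30 to 2.23), and 2.58 without the cell with the most Hbegf in each library, since 1 isotype control cell held 32 of 74 UMIs. Summed over libraries, the order of Hbegf levels was neutrophils (66.1 CPM, 57.6 to 75.6), Rhox5 cells (23.0, 21.2 to 24.9), type 2 lymphocytes (10.0, 4.81 to 18.5), NK cells and ILC1 (7.50, 5.92 to 9.37), T cells (6.11, 4.82 to 7.65), monocytes (5.50, 4.68 to 6.43), macrophages (4.48, 4.26 to 4.71) and dendritic cells. From type 2 lymphocytes to macrophages, each class overlapped its neighbor in this order. The place of neutrophils rests on the combination library, since in the isotype control their interval overlapped that of the Rhox5 cells.

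Areg, which encodes amphiregulin, was mostly a product of very few cells. With at least 2 UMIs of at least 2 of Krt8, Krt18, Krt19 and Epcam, 20, 11, 2 and 7 cells were found in the isotype control, A, B and combination libraries, and they held 1089, 927, 45 and 468 Areg UMIs. That is 77.6%, 88.0%, 23.3% and 73.4% of the Areg UMIs of each library. Areg was present in 25 of these 40 cells. Over all 40, those without Areg included, the median was 45.5 and the highest value 233 UMIs.

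The 30 of these cells in the Col3a1 cluster had Areg at 4054, 3448, 4589 and 3335 CPM in the isotype control, A, B and combination libraries, the value of B coming from 1 cell. Their ratio of combination to isotype control was 0.823 (0.735 to 0.919). Over all 40 cells the levels were 3083, 3287, 1015 and 2776 CPM, with a ratio of combination to isotype control of 0.9005 (0.806 to 1.004) and of B to isotype control of 0.329 (0.239 to 0.444), where B had 2 cells and Areg in 1 of them. The number of epithelial-marker cells, all 40 counted, was 2.58, 1.82, 0.346 and 0.970 per 1000 cells of the library. The Areg level of the whole Col3a1 cluster, 256.8, 104.1, 5.50 and 69.6 CPM, had the same order of libraries as that number. Its ratio of combination to isotype control was 0.271 (0.242 to 0.303), in a class where 3.21% of 9660 genes were at least 2-fold lower and 1.60% at least 2-fold higher. The sort was for CD45, and Ptprc stood at 19.4 CPM in these cells; how far the gate set their number was not tested.

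These cells had further genes that are known from glandular epithelium. Prlr, the prolactin receptor, stood at 3459 CPM, Pgr, the progesterone receptor, at 948.5, Foxa1 at 1105, Gata3 at 1570 and Csn3, a milk casein, at 460 CPM, against 0 to 5.22 in the other cells of the Col3a1 cluster. Other ligands of the family were present in them as well, with Btc at 87.4, Nrg4 at 89.0, Tgfa at 40.5 and Epgn at 32.4 CPM, against 0 to 0.0768 in the rest of that cluster. All 20 Epgn UMIs of the cluster were in the isotype control library. Btc had 31, 12, 0 and 11 UMIs there in the isotype control, A, B and combination libraries. The receptors Erbb3 (382 CPM) and Erbb2 (162) were higher in them than in the rest of that cluster (14.3 and 31.6), and Egfr was lower (12.95 against 50.6). Neither Rhox5 nor Ereg had a UMI in them. These genes were looked up after the cells were found, and they name no origin.

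**Figure D3:**
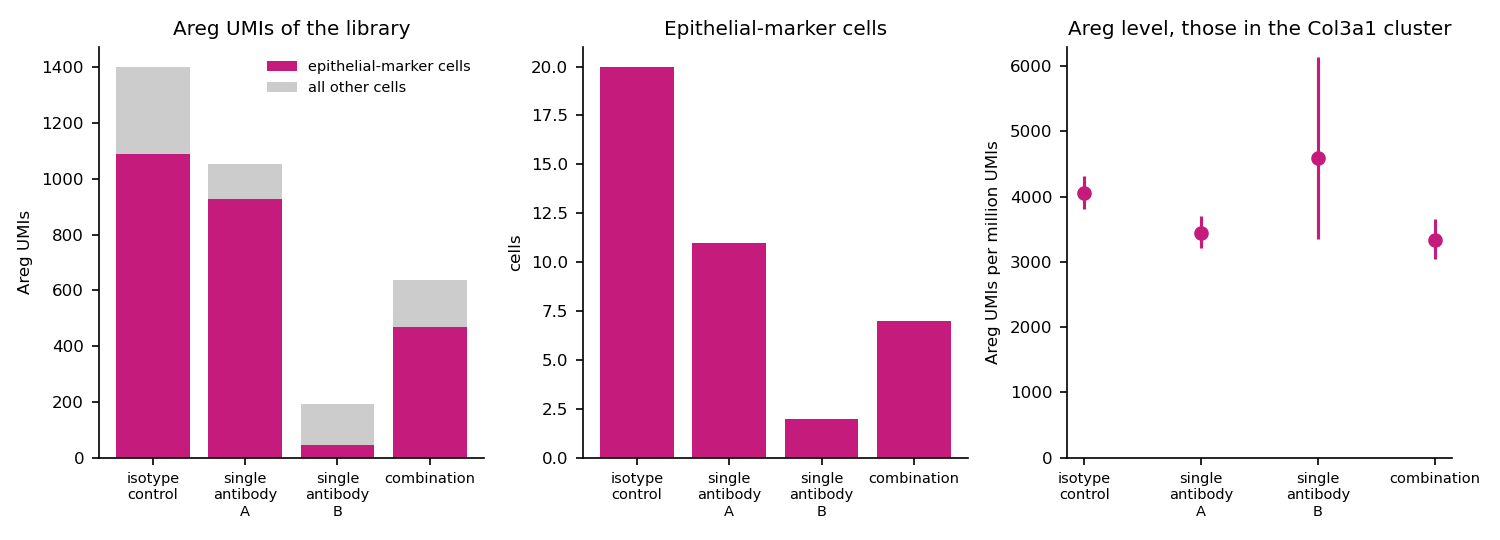
Areg UMIs in each library, in epithelial-marker cells and in all other cells (left), the number of all epithelial-marker cells (middle), and the Areg level of the 30 of them in the Col3a1 cluster with its 95% counting interval (right). In the isotype control, A, B and combination libraries the number of all such cells is 20, 11, 2 and 7, and the level within the 15, 8, 1 and 6 of them in the Col3a1 cluster lies between 3335 and 4589 CPM.

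Outside the epithelial-marker cells, Areg stood at 2.03, 1.12, 1.16 and 0.979 CPM in the isotype control, A, B and combination libraries. Of these 759 UMIs, 458 (60.3%) were in macrophages, 204 in the clusters with T cell and macrophage markers together, 45 in T cells and 23 in type 2 lymphocytes. Macrophages without the epithelial-marker cells had a level of 1.32 CPM, below that of T cells (3.62). Within the T cell class, 35 UMIs lay in 192 cells with Cd4 and Foxp3, the transcription factor of regulatory T cells. Another 2 lay in 407 cells with Cd4 without Foxp3, and 4 in 634 with Cd8a or Cd8b1 but neither Cd4 nor Foxp3. The levels of these 3 groups were 22.1 (15.4 to 30.7), 0.934 (0.113 to 3.37) and 0.703 (0.191 to 1.80) CPM, at median depths of 4861, 3788 and 5895 UMIs. This contrast is partly set by the class rule, which took type 2 lymphocytes, defined as cells without Foxp3, out of the T cells. Most type 2 lymphocytes had Cd3e, and their Areg level was 23.1 CPM. Areg was found in 14.6% of the Foxp3 cells, or 5.55% at 2000 UMIs per cell, and in none of 721 neutrophils, which allows up to 0.416%.

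By library, the T cells with Cd4 and Foxp3 had 18, 4, 9 and 4 Areg UMIs in 86, 48, 49 and 9 cells, at 31.6 (18.7 to 49.9), 13.9 (3.79 to 35.6), 15.2 (6.95 to 28.9) and 29.2 (7.96 to 74.8) CPM. All 4 intervals overlapped, while the number of these cells within the T cell class was lowest in the combination. That number leaves out the clusters with T cell and macrophage markers together. The larger of those had Foxp3 as its first leading gene and held 819, 250, 370 and 721 cells in the 4 libraries. No number of all Foxp3 cells per library is therefore read from these counts. In all T cells Areg had 19, 5, 12 and 9 UMIs and levels of 6.29, 1.34, 4.90 and 2.78 CPM. The ratio of combination to isotype control was 0.442 (0.176 to 1.03), an interval that includes 1, and 0.219 (0.0533 to 0.680) with clusters made without integration. Summed macrophage markers in T cells stood at 10280, 3974, 15180 and 7906 CPM in the isotype control, A, B and combination libraries. How many Areg UMIs of the class came with macrophage RNA was not tested. In the T cell class 1.40% of 9203 genes were at least 2-fold higher and 1.92% at least 2-fold lower, and Areg was under the minimum for that count.

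Type 2 lymphocytes had 6, 8, 0 and 9 Areg UMIs in 14, 41, 6 and 46 cells, at 71.5 (26.2 to 155.6), 30.1 (12.99 to 59.3), 0 and 15.5 (7.07 to 29.4) CPM. The isotype control was the highest, but only 8 of the 107 cells had any Areg. The ratio of combination to isotype control was 0.216 (0.0688 to 0.739), and 0.514 without the cell with the most Areg in each library, while at a clustering resolution of 0.4 it was 0.703 (0.214 to 2.46). Summed macrophage markers in this class stood at 1096, 1023, 27820 and 9277 CPM, lowest in A and the isotype control. With cells left out that had 1% or more of their UMIs on those markers, the ratio was 0.188 (0.0391 to 0.794). Over all libraries the level was 23.1 CPM (14.6 to 34.6), which overlapped that of T cells with Foxp3. In this small class 16.4% of 6657 genes were at least 2-fold higher in the combination and 6.88% at least 2-fold lower.

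Macrophages had 202, 239, 95 and 109 Areg UMIs, or 2.42, 3.17, 1.10 and 1.08 CPM. A single cell held 146 of the 239 UMIs in A, and without the top cell that level was 1.24 CPM, so the isotype control was then the highest. This cell was an epithelial-marker cell, since all other cells of A together held 127 Areg UMIs. It lay in the cluster led by Rsad2 and Ifit3, which had 149 Areg UMIs in A. For monocytes and macrophages together the ratio of combination to isotype control was 0.491 (0.387 to 0.621), and 0.615 with epithelial-marker cells left out. Macrophages held 645 Areg UMIs with epithelial-marker cells and 458 without them, and the levels by cluster were computed with them. On that count the isotype control was the highest in the Ctsk cluster (8.72, 2.66, 3.54 and 2.53 CPM) and the Gbp2b cluster (3.69, 0.153, 0 and 0.881 CPM). In the Cbr2 cluster the combination was the highest (0.576, 0.887, 1.03 and 1.38). The part of epithelial-marker cells in the levels of the Ctsk, Gbp2b and Cbr2 clusters was not tested. Monocytes had 9 Areg UMIs in 2700 cells. NK cells and ILC1 had 3 in 1406 cells and mast cells and basophils had none in 148.

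Ereg, which encodes epiregulin, was close to a single-population gene here. In the Rhox5 cells there were 21, 78, 39 and 54 UMIs in the isotype control, A, B and combination libraries, at 6.20 (3.84 to 9.48), 10.9 (8.58 to 13.6), 4.58 (3.26 to 6.27) and 8.27 (6.21 to 10.8) CPM. It was found in 8 of 46, 20 of 77, 19 of 97 and 27 of 66 of these cells. The interval of A lay above that of B, the other intervals overlapped, and 1 cell of A held 30 of its 78 UMIs. As ratios, the combination was 1.80 times B (1.17 to 2.80) and A was 1.75 times the isotype control (1.07 to 2.99), both with intervals above 1. Without the cell with the most Ereg in each library, A was 1.596 times the isotype control in the Rhox5 cells, a value given without an interval. For the whole Col3a1 cluster the ratio of combination to isotype control was 1.32 (0.799 to 2.26), an interval that includes 1.

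Elsewhere Ereg was nearly absent. Macrophages had 11 UMIs in 14531 cells, a level of 0.0318 CPM (0.0159 to 0.0569), and the monocytes had none in 2700 cells. Neutrophils, T cells, type 2 lymphocytes, NK cells and ILC1, dendritic cells, B cells, and mast cells and basophils had no Ereg UMI either. The count of 0 allows up to 0.416% of neutrophils and up to 0.111% of monocytes to have a UMI, at median depths of 3173 and 9080 UMIs, against 77931 in the Col3a1 cluster. With cells reduced to 2000 UMIs and any shallower ones left out, 1.16% of cells in the Col3a1 cluster had Ereg.

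Nrg1, which encodes neuregulin 1, was highest in monocytes. There it had 293, 290, 167 and 611 UMIs in the isotype control, A, B and combination libraries, at 29.5 (26.3 to 33.1), 45.5 (40.4 to 50.99), 37.8 (32.3 to 44.0) and 73.1 (67.5 to 79.2) CPM. The combination was the highest and its interval met none of the others. That was 2.48 times the level of the isotype control (2.15 to 2.86). This ratio depends on how the class is drawn: with clusters made without integration of the libraries it was 1.01 (0.553 to 1.77). The class then held 1170 cells, 1161 of them among the 2700 monocytes used here, with Nrg1 at 12.1 CPM in the isotype control, 12.2 in the combination and 10.9 over all libraries, which is less than in the Rhox5 cells. Of the 2700 monocytes, 845 then fell into a class between monocytes and macrophages and 651 into macrophages. Against A the ratio was 1.61 (1.40 to 1.86), and against B it was 1.94 (1.63 to 2.31). Among 8274 genes past the minimum in monocytes, 2.48% were at least 2-fold higher in the combination than in the isotype control and 0.556% at least 2-fold lower.

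Cells with Nrg1 made up 15.9%, 19.7%, 19.0% and 33.5% of monocytes in the 4 libraries, or 5.11%, 6.88%, 6.17% and 11.4% at 2000 UMIs per cell. T cells, which are not known for neuregulin, had 1.07% at a median depth of 4680 UMIs, and 0.211% at 2000 UMIs. The 2 monocyte clusters differed. The one led by Plac8 and Chil3, genes of classical monocytes, had Nrg1 at 70.0 CPM over all libraries, and the one led by Ace and Adgre4, genes of non-classical monocytes, had 15.3.

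The mix of these clusters differed between libraries too, since the Plac8 cluster was 450 of 1005 monocytes in the isotype control and 415 of 630 in the combination. Within the Plac8 cluster the levels were 50.8, 74.6, 54.9 and 90.2 CPM, a ratio of combination to isotype control of 1.78 (1.52 to 2.08). Within the Ace cluster they were 10.2, 8.84, 10.6 and 35.4 CPM, a ratio of 3.47 (2.45 to 4.96). Both ratios rest on the integrated clusters, as the ratio of the class does. In both clusters the combination was the highest, and the other 3 libraries lay closer together in the Ace cluster than in the Plac8 cluster.

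Macrophages had 345, 365, 177 and 1112 Nrg1 UMIs, or 4.14 (3.71 to 4.60), 4.85 (4.36 to 5.37), 2.05 (1.76 to 2.38) and 11.0 (10.3 to 11.6) CPM. The combination stood above every other library, at 2.65 times the isotype control (2.35 to 3.00), 2.27 times A (2.01 to 2.56) and 5.34 times B (4.56 to 6.30). In macrophages 1.92% of 8743 genes were at least 2-fold higher in the combination than in the isotype control and 0.652% at least 2-fold lower. Against A these shares were 1.51% and 0.311% of 8677 genes, and against B 2.88% and 0.941% of 8717. For monocytes and macrophages together the ratio was 2.31 (2.12 to 2.52).

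The macrophage clusters did not all share that order. In the Ctsk cluster Nrg1 had levels of 1.22, 3.20, 0.559 and 15 CPM, a ratio of combination to isotype control of 12.3 (7.10 to 23.0), and in the Cbr2 cluster the ratio was 8.12 (4.47 to 16.2). The Mmp12 and Nos2 cluster, with the most Nrg1 of any macrophage cluster (29.2 CPM), went the other way, with 41.7, 32.2, 11.5 and 30.6 CPM and a ratio of 0.735 (0.601 to 0.901). It is the same cluster in which Hbegf had its highest ratio among the macrophage clusters that gave one. The cluster led by Ifitm1 and Ccl17, between monocytes and macrophages, had 11.5, 9.96, 5.32 and 30.6 CPM, a ratio of 2.67 (2.12 to 3.38).

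**Figure D4:**
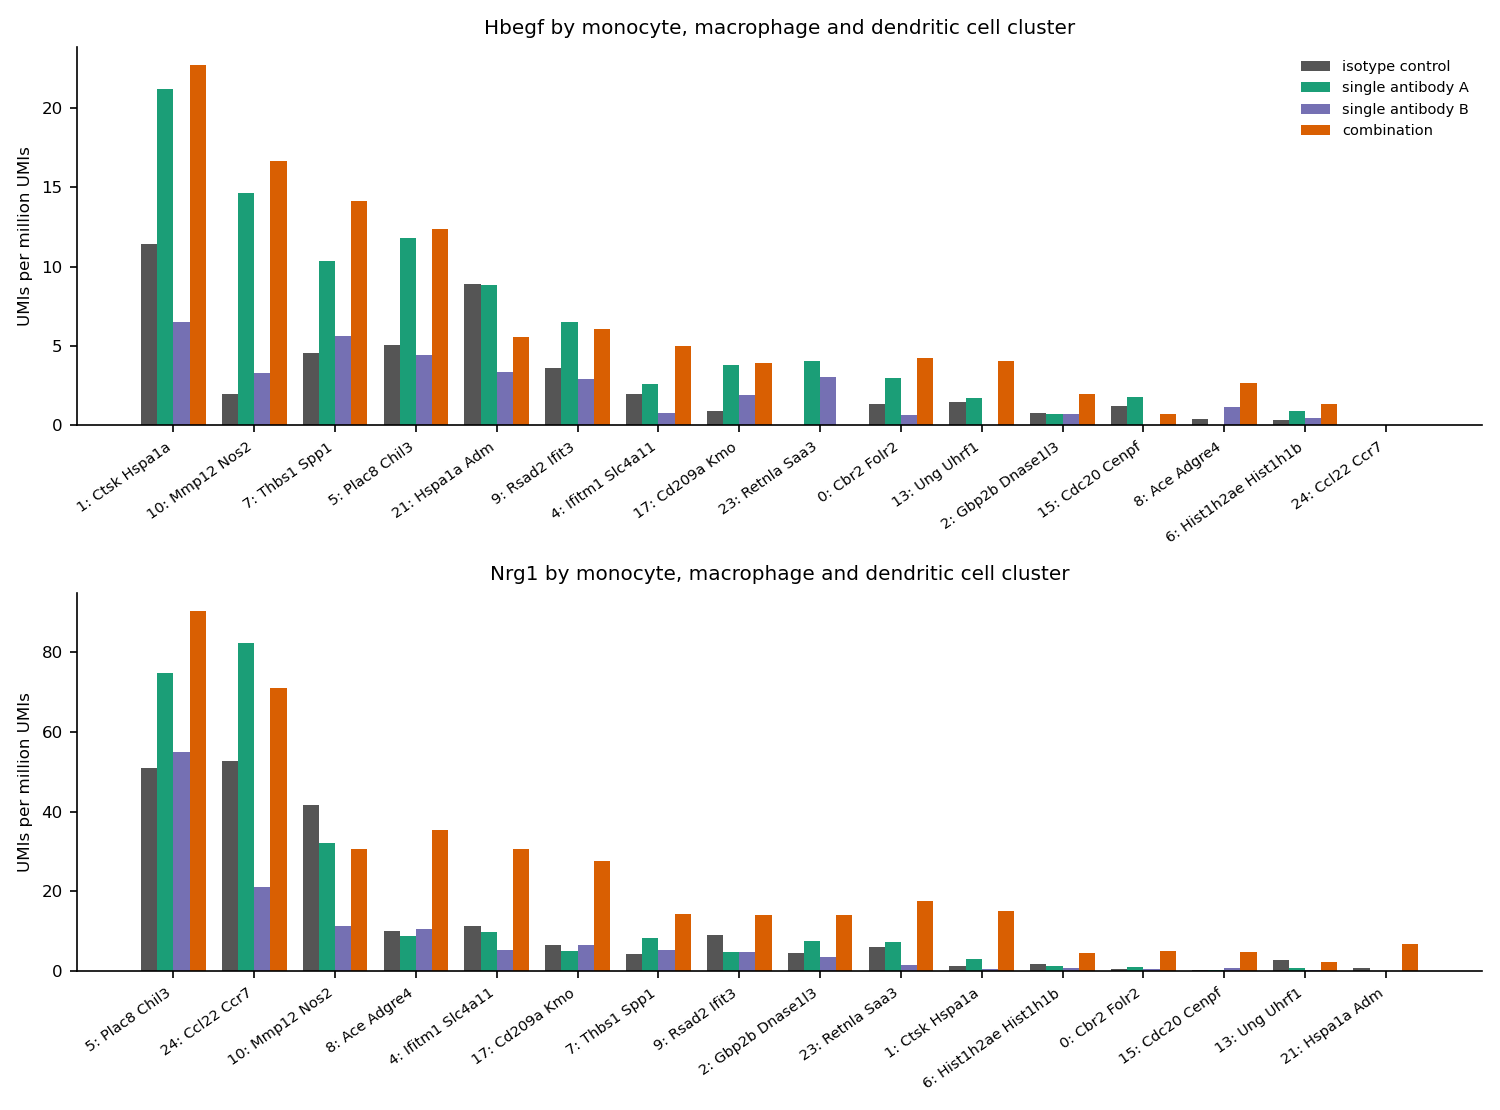
Level of Hbegf (top) and Nrg1 (bottom), in CPM, in the 16 monocyte, macrophage and dendritic cell clusters, each named by its number and 2 leading genes, with 1 bar per library and clusters in order of the level over all libraries. Hbegf in cluster 10 (Mmp12, Nos2) has a ratio of combination to isotype control of 8.38, and Nrg1 in the same cluster has one of 0.735.

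Dendritic cells had Nrg1 at 13.4, 13.02, 8.30 and 37.8 CPM, a ratio of combination to isotype control of 2.83 (1.84 to 4.40), where 2.77% of 8929 genes were at least 2-fold higher and 4.0% at least 2-fold lower. Their cluster led by Ccl22 and Ccr7, genes of migratory dendritic cells, had 60.1 CPM over all libraries, from 66 UMIs in 102 cells, with a ratio of 1.35 (0.732 to 2.52). The larger cluster led by Cd209a and Kmo had 10.6 CPM and a ratio of 4.11 (2.18 to 8.09).

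In Rhox5 cells Nrg1 stood at 18.3 (14.0 to 23.5), 29.8 (25.9 to 34.1), 26.2 (22.9 to 29.9) and 33.1 (28.8 to 37.8) CPM in the isotype control, A, B and combination libraries. The isotype control was the lowest, and the intervals of the other 3 overlapped. As ratios, the combination was 1.26 times B (1.04 to 1.53) and 1.11 times A (0.915 to 1.35), where the second interval includes 1. Neutrophils had 26 Nrg1 UMIs in all, with a ratio of combination to isotype control of 0.945 (0.338 to 3.25), so that the pattern of Hbegf in neutrophils was not seen for Nrg1 at this depth. T cells had 2, 4, 2 and 18 UMIs and a ratio of 8.40 (2.01 to 74.7), or 3.06 as a mean over cells of each cell's own relative level. With clusters made without integration they gave no ratio. Summed macrophage markers in T cells stood at 10280, 3974, 15180 and 7906 CPM, and how many Nrg1 UMIs came with macrophage RNA was not tested. NK cells and ILC1 had 23 Nrg1 UMIs in all. Summed over libraries, Nrg1 was at 46.8 CPM in monocytes (44.4 to 49.4), 27.9 in Rhox5 cells (25.9 to 30.1), 18.1 in dendritic cells (15.1 to 21.4), 7.96 in neutrophils (5.20 to 11.7), 5.77 in macrophages (5.52 to 6.03), 2.24 in NK cells and ILC1 (1.42 to 3.36) and 2.09 in T cells (1.37 to 3.06). Neutrophils overlapped macrophages, and NK cells overlapped T cells.

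The 2474 cells of the clusters with T cell and macrophage markers together were not part of any class above. They held 349 Hbegf, 204 Areg, 2 Ereg and 610 Nrg1 UMIs. Their Nrg1 levels were 3.46, 2.51, 1.33 and 11.6 CPM and their Hbegf levels 3.41, 2.31, 1.66 and 4.52, with the combination the highest for both. Their Areg levels, 3.21, 1.21, 2.20 and 0.915 CPM, were highest in the isotype control.

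**Figure D5:**
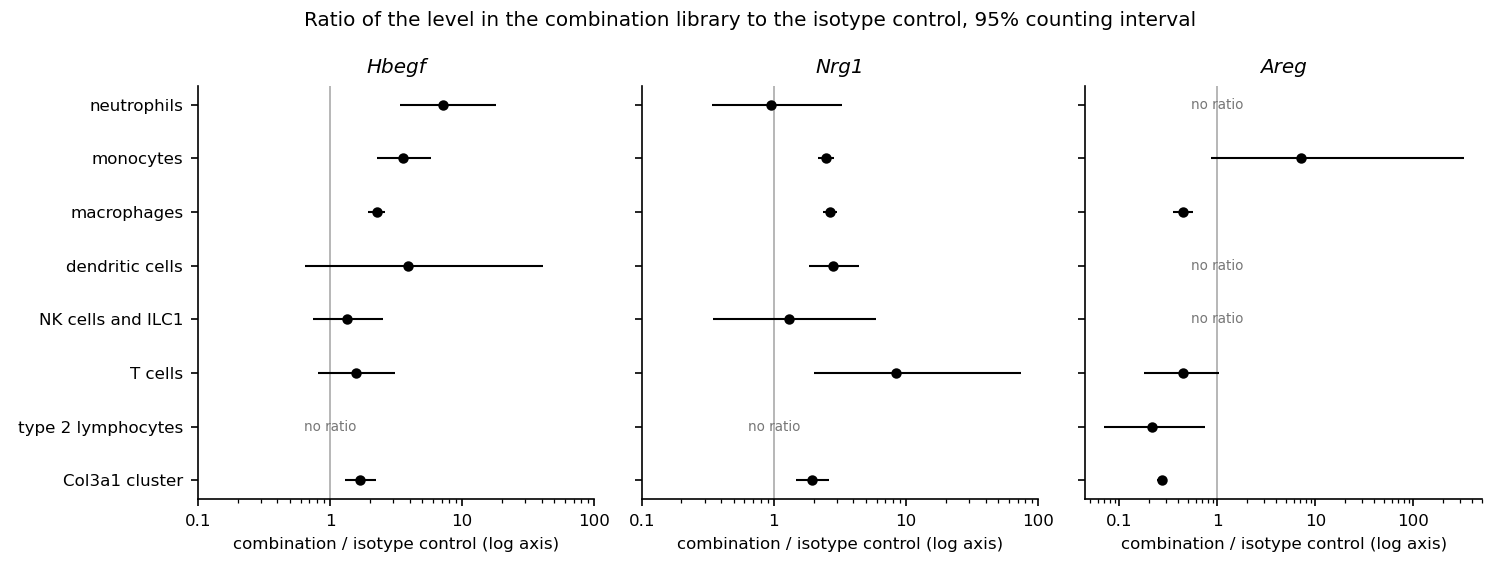
Ratio of the level in the combination library to that in the isotype control (log axis) with its 95% counting interval, for Hbegf, Nrg1 and Areg by class, 1 library per group. No ratio is drawn where a library had 0 UMIs. Every Hbegf ratio drawn is above 1 (7.12 in neutrophils), as is every Nrg1 ratio (2.48 in monocytes) but that of neutrophils (0.945), and Areg lies below 1 except in monocytes, where it had 1 UMI in the isotype control. With clusters made without integration, Nrg1 in monocytes is at 1.01 and Hbegf in T cells at 0.945. Hbegf in monocytes and Nrg1 in T cells then give no ratio.

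The other genes of the pathway were read from lists of 7 further ligands, 4 receptors, 13 genes of shedding and trafficking, 16 feedback inhibitors and 18 immediate early genes, all of which were in the files. No further ligand and no receptor passed the minimum in neutrophils, monocytes, macrophages, T cells or type 2 lymphocytes. Nrg2, a further neuregulin, stood at 5.30 CPM in monocytes, 7.35 in macrophages, 8.55 in dendritic cells and 2.14 in neutrophils. Tgfa, a ligand of EGFR, stood at 6.04 CPM in NK cells and ILC1, 6.02 in type 2 lymphocytes and 4.10 in T cells, against 0.113 in macrophages and 1.14 in the clusters with T cell and macrophage markers together, which held 115 of its UMIs. Of the receptors, Egfr stood at 49.6 CPM in Rhox5 cells and 113 in the 28 remaining cells of their cluster, against 0.529 in macrophages, 3.67 in neutrophils and 4.55 in dendritic cells. Erbb3, the neuregulin receptor, had 14.3 CPM in Rhox5 cells and 2.75 to 7.31 in monocytes, macrophages, T cells and dendritic cells, and Erbb4 was at or near 0 in every class. In the cells of the Col3a1 cluster other than epithelial-marker cells, the ratio of combination to isotype control was 1.07 for Egfr (0.893 to 1.28), 0.9496 for Erbb2 (0.749 to 1.21) and 0.616 for Erbb3 (0.425 to 0.895).

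Adam17, the main sheddase of these ligands, was counted in every class and ranged over the leukocyte classes from 120 CPM in mast cells and basophils to 361 in macrophages. Its 2 partner proteins were split between cells: Rhbdf2 stood at 255 CPM in neutrophils, 192 in monocytes and 159 in macrophages but at 18.3 in Rhox5 cells, whereas Rhbdf1 stood at 89.7 in Rhox5 cells and at most at 12.7 in any leukocyte class. Cd9, a tetraspanin that binds membrane-bound HB-EGF, was at 2368 CPM in neutrophils. Of 9 shedding genes past the minimum in neutrophils, none was 2-fold higher or lower in the combination, and the median ratio was 0.931, against 0.853 over all genes there. Cd9 had the highest ratio of them, 1.91 (1.77 to 2.06), with 1433, 2235, 1690 and 2730 CPM in the 4 libraries, followed by Rhbdf2 at 1.67 (1.34 to 2.09). In monocytes Cd9 was at 215, 271, 266 and 511 CPM, a ratio of 2.38 (2.26 to 2.51), and was the only one of 9 shedding genes past 2-fold, where 2.48% of all genes were higher.

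Feedback inhibitors, which signaling through the receptors is known to induce, and immediate early genes went both ways past 2-fold in single myeloid classes. In monocytes and macrophages together, 0 of 11 feedback inhibitors and 0 of 16 immediate early genes past the minimum were 2-fold higher or lower, against 1.81% higher and 0.676% lower of all genes. Neutrophils had 1 immediate early gene of 18 that was higher, Egr2 with a ratio of 3.30 (1.91 to 6.16), and 2 that were lower, Fos at 0.416 (0.394 to 0.439) and Myc at 0.259 (0.186 to 0.360). Their feedback inhibitors had 0 higher and 2 lower of 12, Spry2 at 0.483 (0.269 to 0.895) and Dusp4 at 0.472 (0.207 to 1.15). With 4.45% of all neutrophil genes higher and 9.66% lower, these counts are near the background. Monocytes had 3 immediate early genes of 17 higher, Egr2, Ier3 and Fosl1, and 2 lower, Egr1 and Fosb, at ratios of 2.11, 2.29, 2.94, 0.424 and 0.435. Of their 11 feedback inhibitors 1 was higher, Spry2 at 2.84 (1.90 to 4.31), and 0 were lower. Over all monocyte genes 2.48% were higher and 0.556% lower. T cells had Egr2 and Dusp2 higher of 17, with ratios of 3.38 (2.65 to 4.36) and 2.19 (1.90 to 2.53), and none lower, against 1.40% and 1.92% of all genes. Egr1, Fos, Fosb, Jun, Junb, Ier2, Atf3 and Dusp1 had intervals below 1 in neutrophils, monocytes and dendritic cells alike. Ier3, Phlda1 and Plaur had intervals above 1 in all of these classes, whose median ratios over all genes were 0.853, 0.946 and 0.926. The share of all genes with such intervals was not counted, so these lists are not read as particular to immediate early genes. In neutrophils Jun (0.859), Egr1 (0.8375) and Dusp1 (0.807) lay near the median of all genes. In macrophages the median ratio of 16 immediate early genes was 1.05, against 0.929 over all genes.

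Type 2 lymphocytes had the most immediate early genes past 2-fold, though on few cells. Of 16 past the minimum, 9 were at least 2-fold lower in the combination and 2 were higher, where 6.88% of all genes of the class were lower and 16.4% higher. Their median ratio was 0.470, against 1.01 over all genes of the class. Summed macrophage markers stood at 1096 CPM in the isotype control and 9277 in the combination, and their part in this difference was not tested. Egr1 had levels of 822, 312, 200 and 110 CPM in the isotype control, A, B and combination libraries, and Egr3 had 453, 52.7, 0 and 61.9. The isotype control values come from 14 cells and 83924 UMIs, the same library and cells in which Areg was highest. Whether 1 or 2 cells carry these genes was not tested. Lower levels were not particular to this class. In NK cells and ILC1 the median ratio of 17 immediate early genes was 0.698, against 0.981 over all genes. Of these 17, 1 was at least 2-fold lower, Dusp1 at 0.407 (0.369 to 0.450), and 0 were higher, where 2.46% of all genes were lower and 1.31% higher.

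The genes most like each ligand were sought across 43 profiles (classes by library with at least 20 cells, 12 classes) by Pearson correlation of log2 levels over 11002 genes. The correlation is a description over profiles that share libraries and depth. Ereg was followed most closely by Gpc6 (0.993), Steap1 and Zic5 (both 0.992), Bdnf (0.991) and Asxl3 (0.990). The 5 closest to Nrg1 were Met (0.876), Mob3b (0.843), Trps1 (0.835), Timp1 (0.822) and Sestd1 (0.802). For Areg they were Mapk8ip1 (0.874), Lrig1 (0.868), Adarb1 (0.859), Igf2bp3 and Ccn4 (both 0.857), and for Hbegf Jdp2 (0.830), Alkbh5 (0.825), Npepps (0.820), Sra1 (0.812) and Rgcc (0.809). The profiles took the Col3a1 cluster as 1 class, so a gene like Areg here need not share its cells. Lrig1 stood at 223.5, 197.5, 219.9 and 204.7 CPM in that cluster in the isotype control, A, B and combination libraries. Areg stood there at 256.8, 104.1, 5.50 and 69.6 CPM.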

How the data were processed

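Per the labels, the authors counted fixed-cell probe libraries with Cell Ranger on mm10 (version 7.0.0 by the labels, 7.2.0 by the file header), and deposited matrices of raw UMI counts per gene and cell, 1 library per group. All results were computed from these counts. Cells with at least 500 genes and at most 10% mitochondrial UMIs were kept, and the 5% with the highest Scrublet score (scanpy 1.11.5) were left out, since its automatic threshold marked 1 to 3 cells per library. Libraries were integrated with Seurat 5.3.0 (sctransform 0.4.2, 3000 features, 30 components) and clustered at resolution 0.8, and clusters were named from marker lists. No full cell barcode was shared between libraries, and 4461 of 23366 gel bead barcodes occurred in more than 1, as separate probe barcodes.

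UMIs were summed per class and library and divided by the class total, with exact Poisson intervals for levels, exact conditional intervals for ratios and exact binomial ones for shares. Intervals and the floor of 3 UMIs cover counting error only. No test was made, because each group has 1 library and the members, the gene lists and the rule for the genes named were chosen with earlier results of these data known. The rule named the members, all receptors and other ligands, the genes of each pathway list with the highest and lowest level or ratio, the 5 genes most like each member, and class markers. Other genes named, such as those of a list past 2-fold, were chosen after their values were seen. The cuts for epithelial-marker and Rhox5 cells, and the limits that set the mixed clusters apart, were chosen after seeing the data. Likeness used log2 of the level plus 1, for genes of at least 20 CPM in 1 profile. Scripts that compute ratios were tested on simulated data. Alternatives were other clusterings, cell filters and scalings, a minimum depth per cell, and cells left out.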

Additional observations from a re-analysis of the deposited data

How the results depend on the processing

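No paired analysis was possible because each group has 1 library and the result comes from no test. Under the alternatives run, these ratios of combination to isotype control kept their direction: Hbegf in neutrophils ranged from 5.61 to 10.4, Hbegf in monocytes and macrophages from 2.27 to 2.74, Nrg1 there from 2.07 to 2.50, Areg there from 0.373 to 0.638, Areg in T cells from 0.201 to 0.516 and Areg in type 2 lymphocytes from 0.143 to 0.703. Nrg1 in neutrophils crossed 1, from 0.481 to 2.10, as did Hbegf in T cells, from 0.945 to 1.70, both with a main interval that included 1. In monocytes and macrophages, the value left the counting interval as a mean over cells of each cell's own relative level (Areg 0.638, Nrg1 2.07). The same mean over only the cells with at least 2000 UMIs also left it (Hbegf 2.74, Areg 0.637, Nrg1 2.09). These settings differ only in the shallower cells and are not separate checks, and neither reduced the depth of a cell. At a resolution of 0.4, Areg left the interval too (0.373). Of the single classes, Nrg1 in monocytes went from 2.48 to 1.01 (0.553 to 1.77) with clusters made without integration, Nrg1 in T cells ranged from 3.06 to 14.1 around 8.40, and Hbegf in monocytes from 3.16 to 7.88 around 3.56. At a minimum of 20 CPM, 238 genes were 2-fold higher and 663 lower in neutrophils, against 351 and 763. Areg and Ereg in neutrophils and Ereg in monocytes and macrophages gave no ratio. With clusters made without integration, Hbegf in monocytes and Nrg1 in T cells gave none either, so their ranges leave that setting out. Depth limits the type 2 lymphocytes (64989 to 581733 UMIs per library) and neutrophils (285156 to 2071703). Causes of these shifts were not tested.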
